A study of Homo sapiens with 6 samples.

Results

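ATP-binding cassette (ABC) transporter genes were compared between JHH-4 cells that overexpressed miR-885-5p and control JHH-4 cells. The members were all rows of the count table whose gene name starts with ABCA, ABCB, ABCC, ABCD, ABCE, ABCF or ABCG followed by a digit, which gave 29 of 14034 rows. GENCODE 29 lists 45 protein-coding genes of that form. The table held 6 of 12 ABCA, 7 of 9 ABCB, 8 of 11 ABCC, 3 of 4 ABCD, 3 of 3 ABCF and 1 of 5 ABCG genes, and the sole ABCE gene. The other 16 were not analysed here.

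JHH-4 is an established line from a human hepatocellular carcinoma. The miR-885-5p group (3 libraries) carried a plasmid with the primary microRNA and has the genotype label hsa-miR-885-5p overexpress, and the Control group (3 libraries) has the label WT. The labels do not say whether Control cells got a plasmid, and an effect of carrying one cannot be told apart from that of the microRNA. By the series text, replicates within a group are technical, and p-values measure only that technical spread. Total counts ran from 46382314 to 56409821 per library, and the members took 0.127 to 0.14% of them. Of 10 hepatocyte markers, 3 were in the table, with a summed level of 22.6 to 25.2 CPM (counts scaled to library size) in miR-885-5p libraries and 48.1 to 56.1 CPM in Control libraries, while albumin was not analysed here. Their part in the results was not tested.

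ABC transporters use ATP to move substrates across membranes. In liver cells they export bile salts, phospholipid, cholesterol, conjugated drugs and heme precursors, and several of them cause drug resistance in tumours. Other members act inside the cell, on peroxisomes, mitochondria and lysosomes, and the ABCE and ABCF proteins have no membrane part and act on ribosomes.

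MicroRNAs pair with target messages through their seed, bases 2 to 8 from the 5′ end. The mature sequence below, from RefSeq (GRCh38.p14, chr3:10394531-10394552, minus strand), is shown because it defines the sites searched, with the seed in capitals.
miR-885-5p: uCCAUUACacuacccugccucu

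The longest annotated 3′ untranslated region (UTR) of each member was searched on its own strand for GTAATGG, the 7 bases that pair with the seed (a 7mer-m8 site), for GTAATGGA (an 8mer, which contains the 7mer-m8) and for TAATGGA (a 7mer-A1, also contained in the 8mer). A 7mer-m8 or 8mer site was found in 5 of 29 members (17.2%), against 986 of 12308 genes with an annotated 3′ UTR (8.01%). These shares, and those with 7mer-A1 sites below, were not adjusted for UTR length, whose median was 1534 bases over members. Of the 7mer-m8 or 8mer sites in members, 4 are shown with 11 bases of context on either side (GENCODE 29 transcripts, GRCh38). They are shown because the response of these genes is compared with the other members below. Capitals mark the site.
ABCC5 (8mer, chr3:183986257-183986264, minus strand): gagctgagaaaGTAATGGActcatccataa
ABCB8 (8mer, chr7:151047708-151047715, plus strand): caacattgtttGTAATGGAaagactggaca
ABCA1 (7mer-m8, chr9:104781214-104781220, minus strand): ttacgctgtctGTAATGGgatctattttt
ABCB9 (7mer-m8, chr12:122929558-122929564, minus strand): tctaattgggaGTAATGGcgggcactttc

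The family moved in both directions. In the miR-885-5p libraries 7 of the 29 genes rose and 11 fell at an adjusted p under 0.05 (edgeR quasi-likelihood test, Benjamini-Hochberg adjustment over all 14034 rows). These 18 genes are 62.1% of the members, against 52.9% of all rows past the same threshold. Lower genes were 37.9% of members against 26.5% of all rows, and higher genes 24.1% against 26.3%. At least 1.5-fold differences past the threshold were found for 8 members, or 27.6%, against 15.1% of all rows. They were 3 higher genes, against 8.24% of all rows, and 5 lower genes, against 6.89% of all rows. A test against a 1.5-fold change called 2 members, ABCA12 and ABCB1, both lower, against 6.43% of all rows. For 18 members the p in the authors' deposited table, not labelled as adjusted, was under 0.05, against 57.7% of all rows. The median log2 fold change was -0.06 over members and -0.0006 over all rows, and the median absolute value 0.29 over members and 0.24 over all rows. The 2 groups did not overlap for 21 members (72.4%), against 60.5% of all rows, with 8 higher (30.2% of all rows) and 13 lower (30.3% of all rows). In bulk RNA, fewer cells that express a gene and less RNA per cell cannot be told apart.

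**Figure D1:**
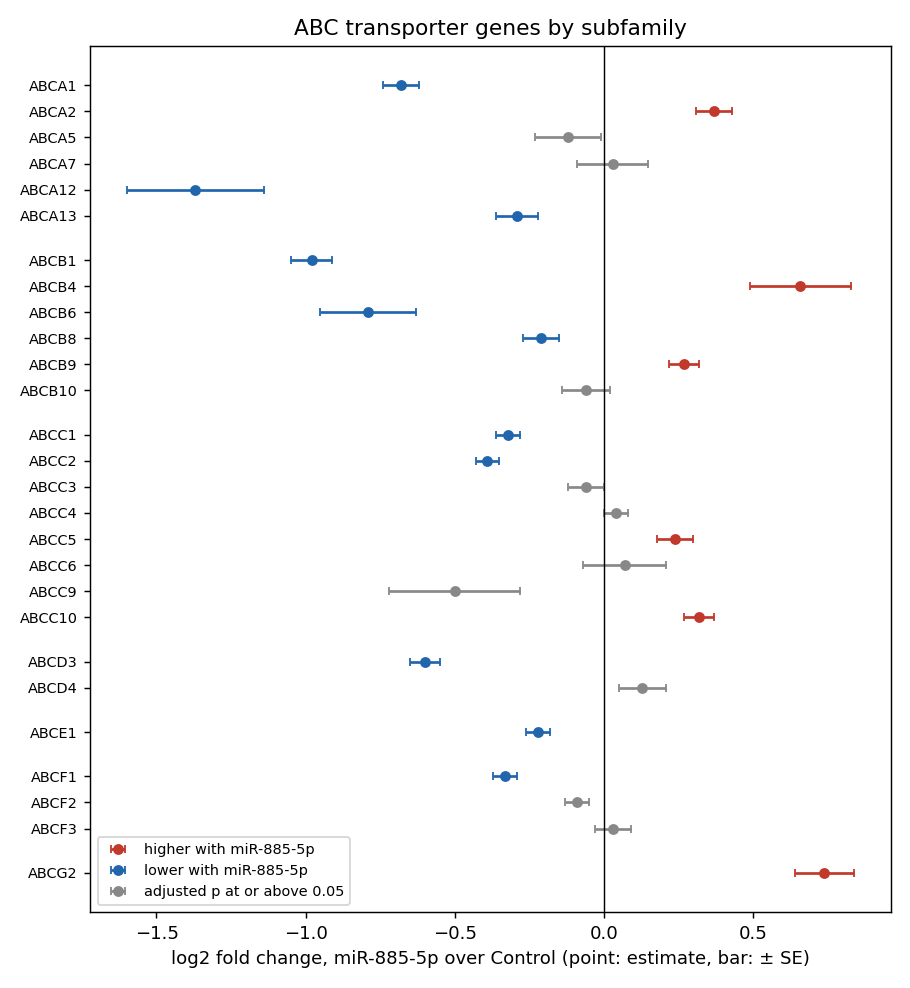
Log2 fold change of 27 ABC transporter genes, miR-885-5p over Control, by subfamily from ABCA at the top to ABCG at the bottom, with bars of 1 SE. Red points are higher (6 genes) and blue points lower (11 genes) at an adjusted p under 0.05, and both signs occur in each of ABCA, ABCB and ABCC. The value of ABCB6 turns to 0.14 when its counts are summed with an overlapping row.

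The drug exporters ABCB1 and ABCG2 went opposite ways. ABCB1, which encodes P-glycoprotein, an exporter of hydrophobic drugs, had TMM-scaled levels of 21.3, 18.5 and 18.8 CPM in miR-885-5p libraries 1 to 3, against 37.0, 40.0 and 38.9 CPM in Control libraries 1 to 3. Every Control library stood far above every miR-885-5p library (log2 fold change -0.98, SE 0.07, adjusted p = 2.76e-06 in edgeR). ABCG2, the breast cancer resistance protein, which exports drugs and urate, had 11.1, 11.8 and 10.8 CPM in miR-885-5p libraries, against 7.65, 6.23 and 6.31 CPM in Control libraries. All 3 miR-885-5p libraries exceeded the Control libraries (log2 fold change 0.74, SE 0.10, adjusted p = 2.49e-04 in edgeR).

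Since the pair encodes exporters with shared substrates, their ratio was formed in each library from the authors' FPKM, which is scaled to gene length. The ratio of ABCG2 to ABCB1 was 0.607, 0.726 and 0.671 in miR-885-5p libraries and 0.251, 0.173 and 0.204 in Control libraries. ABCB1 thus remained the higher of the pair in all 6 libraries. This ratio was formed after the values were seen and is given without a test.

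**Figure D2:**
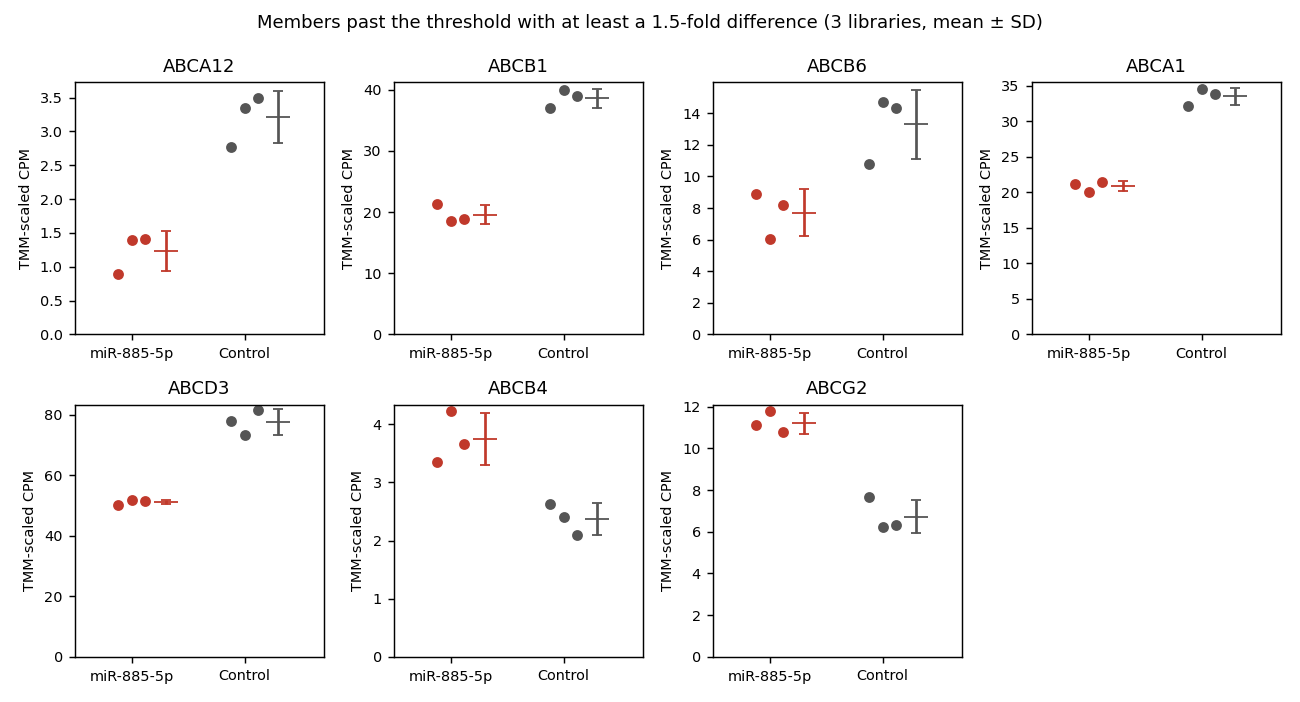
TMM-scaled CPM in each library for 7 members past the threshold with at least a 1.5-fold difference, miR-885-5p left of Control, with mean and SD beside the points and each axis starting at 0. ABCA12, ABCB1, ABCB6, ABCA1 and ABCD3 are lower and ABCB4 and ABCG2 higher with miR-885-5p, and the 2 groups overlap for none of these 7 genes.

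Of the ABCA subfamily, whose members move lipids, 3 of 6 genes were lower and 1 was higher (median log2 fold change -0.20). ABCA1, which loads cellular cholesterol and phospholipid onto apolipoprotein A-I, had 21.2, 20.1 and 21.4 CPM in miR-885-5p libraries and 32.1, 34.5 and 33.9 CPM in Control libraries. The groups lay well apart, with a spread of about 1 CPM within each (SD 0.666 and 1.25 CPM; log2 fold change -0.68, SE 0.06, adjusted p = 9.52e-06 in edgeR). ABCA12, the lipid transporter of epidermal lamellar bodies, had the largest fold difference among the members but a low level. Its values were 0.891, 1.39 and 1.41 CPM with miR-885-5p and 2.77, 3.35 and 3.49 CPM in Control libraries, which rest on 42 to 172 reads per library (log2 fold change -1.37, SE 0.23, adjusted p = 6.93e-04 in edgeR).

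ABCA2, a lysosomal lipid transporter, rose to 51.4 ± 2.68 CPM with miR-885-5p against 39.9 ± 2.21 CPM in Control libraries (SD, n = 3 each; log2 fold change 0.37, adjusted p = 6.59e-04 in edgeR). ABCA13, the longest protein of the family, fell by 0.29 on the log2 scale (SE 0.07, adjusted p = 0.00844 in edgeR), but did not pass the threshold on the FPKM scale (adjusted p = 0.0825 with limma). ABCA5 and ABCA7 had log2 fold changes of -0.12 and 0.03 with overlapping groups and did not pass the threshold. The sign of ABCA5 turned on the FPKM scale (0.18), and that of ABCA7 without Control library 1 or 3 or miR-885-5p library 1 (-0.03 to -0.02).

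In the ABCB subfamily 2 of 7 genes were higher and 3 lower (median log2 fold change -0.06). ABCB4, the canalicular floppase that moves phosphatidylcholine into bile, had 3.35, 4.23 and 3.67 CPM in miR-885-5p libraries, against 2.63, 2.40 and 2.09 CPM in Control libraries. It was low in all libraries, yet the lowest miR-885-5p value was above the highest Control value (log2 fold change 0.66, SE 0.17, adjusted p = 0.00963 in edgeR). ABCB4 and ABCB1 are neighbours on the minus strand of chromosome 7, 23197 bases apart, so the pair shows opposite changes within a single locus. The FPKM ratio of ABCB4 to ABCB1 was 0.226 ± 0.0429 with miR-885-5p and 0.0706 ± 0.0110 in Control libraries (SD, n = 3 each). Its direction follows from the opposite changes of the pair, and it is given without a test. ABCB4 rests on 103 to 244 reads per library.

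ABCB6, a porphyrin transporter, had 8.87, 6.02 and 8.18 CPM in miR-885-5p libraries and 10.8, 14.7 and 14.3 CPM in Control libraries, so it was lower in every miR-885-5p library (log2 fold change -0.79, SE 0.16, adjusted p = 0.00230 in edgeR). The call is sensitive to a gene that shares its exons. GENCODE 29 places AC068946.2, a separate gene on the same strand that runs into the neighbouring locus of ATG9A, over 2864 of its 5234 exonic bases. AC068946.2 had 18.0, 24.0 and 18.3 CPM with miR-885-5p and 16.0, 8.65 and 11.3 CPM in Control libraries, the opposite order (log2 fold change 0.74, SE 0.20, adjusted p = 0.00980 in edgeR).

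With the counts of both rows summed, the level was 26.8, 30.0 and 26.5 CPM in miR-885-5p libraries and 26.8, 23.4 and 25.6 CPM in Control libraries. The groups then overlapped, and the log2 fold change was 0.14 (SE 0.07, adjusted p = 0.142 in edgeR). Within each group, the library with the lowest ABCB6 value had the highest AC068946.2 value. The number of lower members was 10 with the rows summed. Reads assigned to the wrong row and opposite changes of both genes cannot be told apart here.

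**Figure D3:**
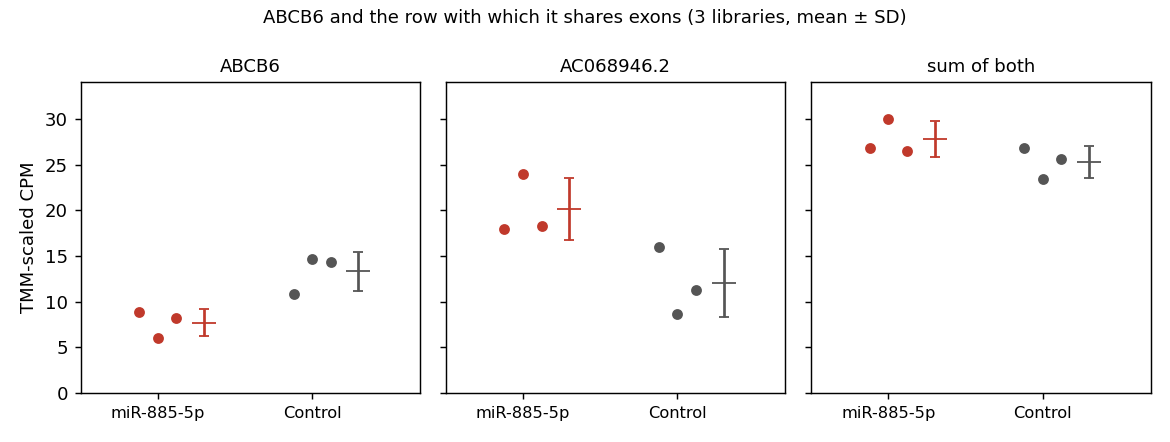
TMM-scaled CPM of ABCB6, of the overlapping row AC068946.2 and of their sum in each library, miR-885-5p left of Control, with mean and SD beside the points. ABCB6 averages 7.69 CPM with miR-885-5p and 13.3 CPM in Control libraries, AC068946.2 averages 20.1 and 12.0 CPM, and the sum averages 27.8 and 25.3 CPM in the same order of groups.

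ABCB10, which supports heme synthesis, was at -0.06 and its sign turned without Control library 3 (0.03) and on the FPKM scale (0.0048). Reads of its 3 annotated pseudogenes may have been counted with it. ABCB8, linked to mitochondrial iron export, fell to 52.2 ± 2.47 CPM with miR-885-5p against 60.3 ± 4.68 CPM in Control libraries (SD, n = 3 each; log2 fold change -0.21, SE 0.06, adjusted p = 0.0202 in edgeR). This call ended under total-count scaling (log2 fold change -0.16, adjusted p = 0.0670), without miR-885-5p library 3 (-0.17, adjusted p = 0.0838), with the replicate number as a block (-0.21, adjusted p = 0.0530) and on the FPKM scale, where the log2 fold change was -0.03 (adjusted p = 0.896 with limma).

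ABCB9, a peptide transporter of lysosomes, rose to 57.4 ± 0.958 CPM against 47.6 ± 2.58 CPM in Control libraries (SD, n = 3 each; log2 fold change 0.27, adjusted p = 0.00170 in edgeR). Its exons overlap those of OGFOD2 and ARL6IP4 on the other strand by 1656 and 1590 bases, and the labels do not state whether reads were counted by strand. These overlapping genes had log2 fold changes of -0.03 (OGFOD2) and 0.00 (ARL6IP4) and did not pass the threshold.

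The ABCC subfamily holds the multidrug resistance proteins, which export glutathione, glucuronide and sulfate conjugates. Of its 8 genes, 2 were higher and 2 lower, none of them by 1.5-fold, with a median log2 fold change of -0.01. ABCC2, the canalicular exporter of bilirubin conjugates and the highest ABCC gene per length, fell to 122 ± 2.11 CPM with miR-885-5p against 159 ± 4.15 CPM in Control libraries (log2 fold change -0.39, SE 0.04, adjusted p = 2.02e-05 in edgeR, n = 3 each). ABCC1, an exporter of glutathione conjugates and leukotrienes, fell to 71.3 ± 2.42 CPM against 89.0 ± 2.62 CPM in Control libraries (log2 fold change -0.32, adjusted p = 2.13e-04 in edgeR).

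ABCC10, a broad drug exporter, rose to 27.3 ± 0.0933 CPM with miR-885-5p against 21.9 ± 0.318 CPM in Control libraries (SD, n = 3 each; log2 fold change 0.32, adjusted p = 7.49e-04 in edgeR). ABCC5, an exporter of cyclic nucleotides, rose by 0.24 (SE 0.06, adjusted p = 0.0114 in edgeR), but did not pass the threshold without Control library 1 (log2 fold change 0.21, adjusted p = 0.0502) or on the FPKM scale (0.18, adjusted p = 0.116 with limma). ABCC3, the basolateral exporter of bile acid glucuronides, and ABCC4, another exporter of cyclic nucleotides and bile acids, had log2 fold changes of -0.06 and 0.04. ABCC6, a liver transporter needed for release of ATP, was at 0.07, and reads of its 2 pseudogenes may have been counted with it.

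ABCC9, the sulfonylurea receptor subunit of potassium channels and no exporter, had 1.15, 1.51 and 1.49 CPM in miR-885-5p libraries and 2.35, 1.76 and 1.77 CPM in Control libraries. It was lower in each miR-885-5p library, but missed the threshold (log2 fold change -0.50, SE 0.22, adjusted p = 0.0823 in edgeR). Along with ABCC4 and ABCF2 it made up the 3 members whose groups did not overlap although they were not past the threshold.

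In subfamily ABCD, ABCD3 was lower. ABCD3, a peroxisomal transporter which imports branched fatty acids and bile acid precursors, had 50.3, 51.7 and 51.4 CPM in miR-885-5p libraries and 77.8, 73.2 and 81.6 CPM in Control libraries. The 3 miR-885-5p values were close together and far below the Control values (log2 fold change -0.60, SE 0.05, adjusted p = 8.45e-06 in edgeR). ABCD4, which exports cobalamin from lysosomes, had a log2 fold change of 0.13 (adjusted p = 0.227 in edgeR) with overlapping groups.

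ABCD3 lies on the short arm of chromosome 1 (chr1:94418455-94518666, plus strand, GRCh38). The 50 tested genes nearest to it, 25 on each side, had a median log2 fold change of -0.26, the lowest such value among the 26 members with 25 neighbours on both sides. The highest was 0.21 around ABCC2, which itself fell. The part of these neighbourhoods in the values of the members was not tested.

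ABCE1, the ATPase that splits ribosomes after termination, fell to 117 ± 4.21 CPM with miR-885-5p against 137 ± 0.461 CPM in Control libraries (log2 fold change -0.22, SE 0.04, adjusted p = 9.00e-04 in edgeR, n = 3 each). ABCF1, which works with initiation factor eIF2, fell to 130 ± 5.36 CPM against 164 ± 3.44 CPM in Control libraries (log2 fold change -0.33, SE 0.04, adjusted p = 1.18e-04 in edgeR). ABCF2 had a log2 fold change of -0.09 (adjusted p = 0.0786 in edgeR), and ABCF3 one of 0.03, whose sign turned without miR-885-5p library 2 (-0.01) or Control library 3 (-0.0026).

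**Figure D4:**
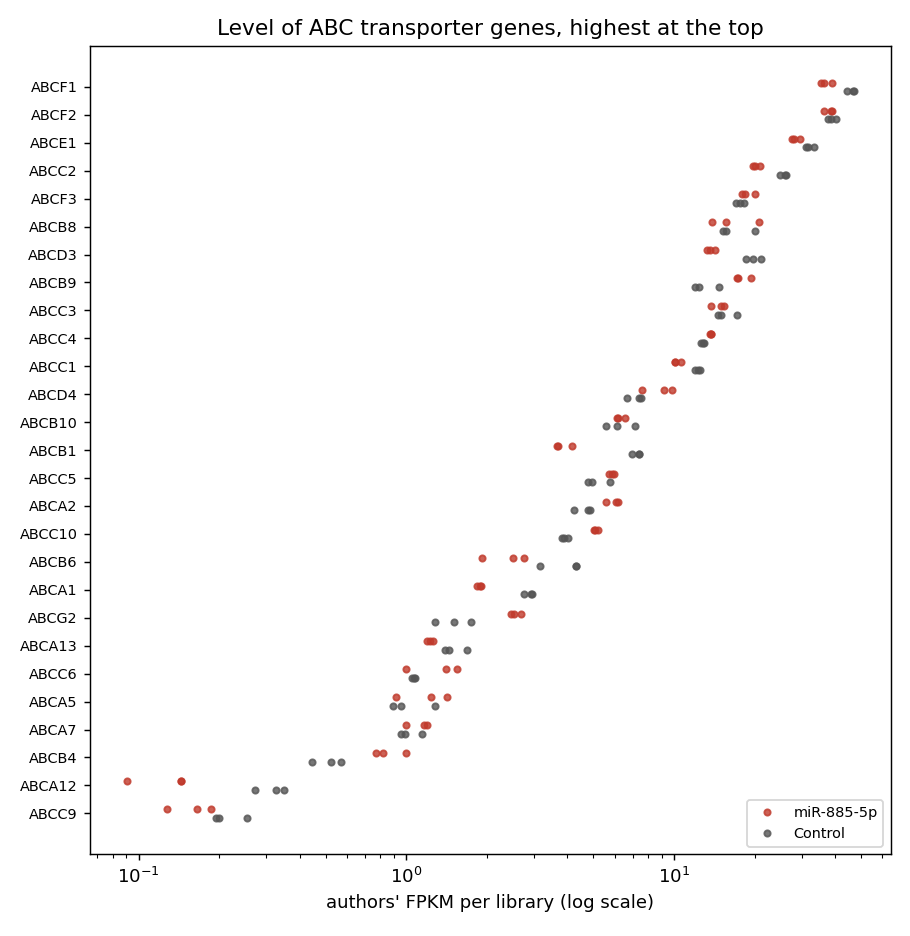
The authors' FPKM of 27 ABC transporter genes in each library on a log axis, with the highest mean at the top and miR-885-5p points drawn above Control points. Means over all libraries run from 41.4 FPKM for ABCF1 to 0.188 FPKM for ABCC9, and ABCB1 stands at 3.84 FPKM with miR-885-5p and 7.28 FPKM in Control libraries.

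Per length, ABCF1 led with 41.4 FPKM over the 6 libraries, ahead of ABCF2 (38.3), ABCE1 (30.3), ABCC2 (23.0) and ABCF3 (18.2). ABCF1 and ABCF2 differed beyond their spread in the Control libraries alone. ABCF1 had 36.5, 38.8 and 35.4 FPKM in miR-885-5p libraries, overlapping the values of ABCF2 there (36.3, 38.8 and 38.6 FPKM), while in Control libraries its 46.5, 47.1 and 44.2 FPKM lay above the 38.5, 37.6 and 40.3 FPKM of ABCF2. On its strand, ABCF2 shares 1914 of its 4177 exonic bases with AC021097.2, a gene without a row, and it has 2 annotated pseudogenes. The part of shared reads in the level of ABCF2 was not tested. At the low end of the FPKM order were ABCC9 with 0.188, ABCA12 with 0.221 and ABCB4 with 0.687 FPKM. ABCG2 ranked 22 and ABCB1 ranked 15 of the 29 genes by mean FPKM.

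Sums of FPKM give the level of a whole subfamily. The 3 ABCF genes together had 93.5 ± 3.65 FPKM with miR-885-5p and 102 ± 0.882 FPKM in Control libraries, and the 8 ABCC genes 71.4 ± 1.30 and 76.6 ± 0.187 FPKM in the same order (SD, n = 3 each). The 7 ABCB genes had 56.3 ± 5.43 FPKM with miR-885-5p and 54.4 ± 5.49 FPKM in Control libraries, within their spread. All 29 genes together had 284, 301 and 288 FPKM in miR-885-5p libraries and 304, 305 and 316 FPKM in Control libraries, so the groups did not overlap. These sums are given without a test.

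Members with a seed site did not share a direction. Among the 5 genes with a 7mer-m8 or 8mer, ABCA1 and ABCB8 were lower, ABCC5 and ABCB9 higher, and ABCC9 was not past the threshold. Their median log2 fold change was -0.21, against -0.06 for the 24 members without such a site. With 5 genes, the former is the value of ABCB8 alone, which was -0.03 with limma on FPKM. Over all genes with an annotated 3′ UTR the medians were -0.042 with and 0.004 without a site. ABCC5, which rose, holds its 8mer 1401 bases into a UTR of 3912 bases that belongs to a short transcript ending 63819 bases before the end of the gene. That site lies in 1 of 6 annotated coding transcripts with a 3′ UTR and not in the principal transcript (APPRIS tag in GENCODE 29). The sites of ABCA1, ABCB8 and ABCB9 lie in a principal transcript, and in 1 of 3, 2 of 7 and 6 of 8 coding transcripts in that order of genes.

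Of the members that fell by most, ABCA12, ABCB1 and ABCB6 hold neither a 7mer-m8 nor an 8mer nor a 7mer-A1. Summed with AC068946.2, ABCB6 was not lower, and ABCA1, which holds a 7mer-m8, then came next after ABCA12 and ABCB1. ABCD3 and ABCB10 hold a 7mer-A1 alone, at chr1:94517268-94517274 (plus strand) and chr1:229517721-229517727 (minus strand). With 7mer-A1 sites counted as well, 7 members hold a site, or 24.1%, against 17.2% of all genes with a UTR. A site here is a match of letters in an annotated UTR, and use of that UTR in JHH-4 cells was not tested.

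Genes that work with ABC transporters were described from 7 lists of 92 genes, of which 81 were in the table. Of these, 23 were higher and 25 lower, or 59.3%, against 52.9% of all rows. The split was 29 higher and 18 lower under total-count scaling, where 4357 rows of the whole table were higher and 3134 lower. For partner genes it was 28 higher and 15 lower with limma on FPKM, which changes both the test and the unit. The whole table then had 3777 rows higher and 2679 lower. In the edgeR fit with TMM scaling, 26.3% of all rows were higher and 26.5% lower, against which the share of each list is given. The median log2 fold change of the 81 genes was -0.03.

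Of 10 genes of sterol efflux and the LXR nuclear receptors, which induce ABCA1, 6 were higher (60.0%) and 1 was lower (10.0%), with a median log2 fold change of 0.30. NPC1 and NPC2, which carry cholesterol out of lysosomes, both rose by 0.58 (adjusted p = 2.32e-06 for NPC1 and 3.38e-06 for NPC2 in edgeR). The LXR gene NR1H2 was at 0.33 and the LXR gene NR1H3 at -0.05, the LXR target MYLIP at 0.63, and LPCAT3, the lower gene and also an LXR target, at -0.86. All but NR1H3 of these 4 passed the threshold, and they were picked with their values known.

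Among 6 receptors and sensors of xenobiotics and bile acids, 2 were higher (33.3%) and none lower (median 0.10). PPARA, the fatty acid receptor, rose by 0.94 and ARNT, the partner of the dioxin receptor, by 0.34, while AHR, NFE2L2, KEAP1 and NR1H4 had adjusted p from 0.208 to 0.811 in edgeR. In the list of glutathione and conjugation enzymes, which make the substrates of ABCC exporters, 2 of 17 were higher (11.8%) and 6 lower (35.3%), with a median of -0.09. GSTM1, a glutathione transferase, rose by 0.96, and GCLM, the regulatory subunit of the enzyme that makes the glutathione precursor, fell by 0.65 on the log2 scale. Reads of GSTM1 may be shared with near-identical GSTM genes. The lower genes include UGT1A1 (1.31 CPM with miR-885-5p, 3.33 CPM in Control libraries) and UGT1A6 (3.21 and 5.85 CPM), both at low levels. Whether UGT1A1 and UGT1A6 share reads was not tested.

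Of 12 genes of peroxisomal import and beta oxidation, which act on what ABCD3 brings in, 5 were higher (41.7%) and 2 lower (16.7%), with a median of 0.11. SLC27A2, an acyl-CoA synthetase for very long chains, fell by 1.26 on the log2 scale, and PEX19, which delivers membrane proteins to peroxisomes, rose by 0.49. Of 12 mitochondrial heme and iron-sulfur genes, 2 were higher (16.7%) and 5 lower (41.7%), with a median of -0.04, led by the iron importer SLC25A37 at 0.33 and the heme synthesis enzyme ALAS1 at -0.22.

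Of 16 genes of ribosome recycling and eIF2, the partners of ABCE1 and ABCF1, 3 were higher (18.8%) and 8 lower (50%), with a median of -0.11. EIF2B3, a subunit of the eIF2 exchange factor, fell by 0.56 and the release factor ETF1 by 0.27 on the log2 scale. Of 8 cobalamin genes, 3 were higher and 3 lower (37.5% each; median 0.00), with the mitochondrial mutase MMUT (MUT in the table) at 0.68 and the cobalamin uptake receptor CD320 at -0.30. LMBRD1, the lysosomal partner of ABCD4, rose by 0.51 and was chosen after its value was seen.

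**Figure D5:**
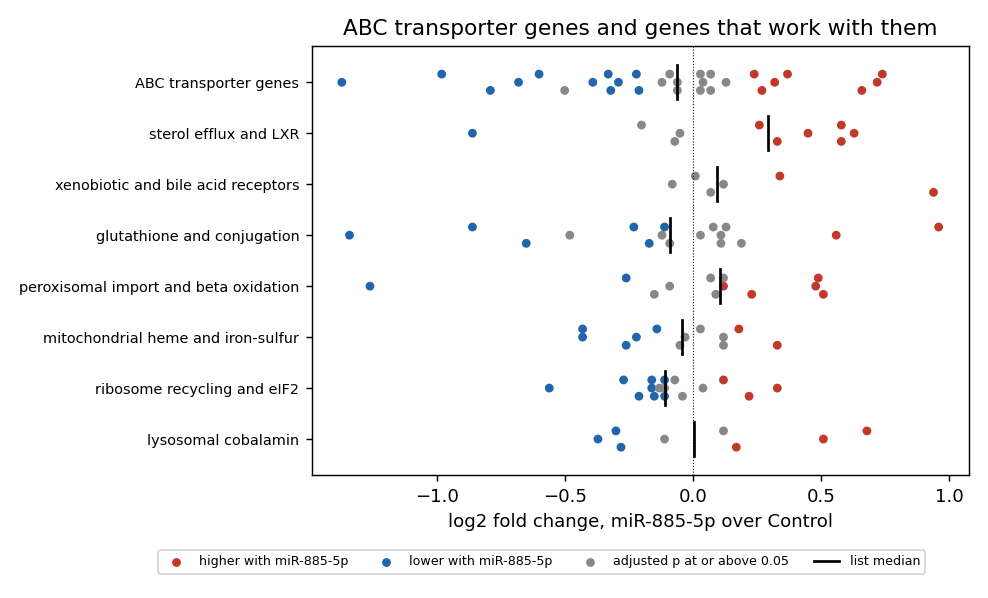
Log2 fold change, miR-885-5p over Control, of the 29 ABC transporter genes and of the members of 7 lists of genes that work with them, 1 point per gene, with a black bar at each list's median. Red and blue points passed an adjusted p of 0.05 upward and downward. Medians run from -0.11 for ribosome recycling and eIF2 to 0.30 for sterol efflux and LXR.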

How the data were processed

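RNA-seq counts of 6 JHH-4 libraries were analysed, with groups and replicate numbers from the sample titles. Per the file headers, the authors deposited a count per gene and library, an FPKM value and, for the comparison, a log2 fold change with its p-value for 14034 rows, 1614 of them without a gene name (2.88 to 3.63% of counts). GRCh38, DESeq2 1.38.3, HISAT2 2.0.4 and StringTie 2.2.1 are named, with no role, per the submitters' processing notes. No source used here states the counter, the annotation, the strand or the authors' test. The authors' deposited FPKM was used for levels between genes, and the authors' deposited p-value and log2 fold change beside the fit.

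The count test was that of edgeR 4.0.16 under R 4.3.3 (quasi-likelihood test, TMM scaling, filterByExpr, which removed no row, threshold 0.05). SE is the absolute log2 fold change divided by the square root of F. The smallest row sum over 6 libraries was 194, so rows with fewer reads were not analysed here. Replicates of a group differed by more than sampling noise (chi-square per degree of freedom 7.95 to 40.5). The fit was run on counts simulated from its own estimated dispersions, with libraries drawn independently. That run could not address technical replication or reads shared between rows. Positions and UTRs came from GENCODE 29, in which all 12420 Ensembl IDs were found, and gene lists by textbook role.

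All ABC members entered the counts, and some members and a sequence are not reported here. Members past the threshold and 1.5-fold got the value in every library, and each list gave its 2 genes with the smallest adjusted p. Members and lists were chosen with earlier results of these data known. Alternatives were DESeq2 1.42.0, limma-voom (limma 3.58.1), 3 scalings, filters, named rows alone, a replicate block, a test against 1.5-fold and leaving out each library. Limma on log2(FPKM + 0.1) and the sum of ABCB6 with AC068946.2 were added after the data were seen.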

Additional observations from a re-analysis of the deposited data

How the results depend on the processing

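DESeq2, limma-voom, RLE and upper-quartile scaling and named rows alone left each of the 29 members on its side of the threshold with its sign. A filter at 5 CPM did so for the 25 members it kept. The fit without a filter is the same as the fit with filterByExpr, which removed no row, so it was no separate check. The test against a 1.5-fold change called 0 members higher and 2 lower (ABCA12 and ABCB1), 493 genes higher and 410 lower over the whole table (6.43% of rows), and 2 partner genes higher and 2 lower. At an adjusted p under 0.05 for any change, the same members gave 7 and 11. Limma on FPKM called 7 members higher and 9 lower, and 28 partner genes higher and 15 lower. Over the whole table it called 3777 genes higher and 2679 lower, against 3697 and 3726 in edgeR with TMM scaling. It turned ABCA5 to 0.18 and ABCB10 to 0.0048, neither past the threshold. The cause was not tested. Summing ABCB6 with AC068946.2 turned ABCB6 to 0.14 by adding that row's counts. Leaving out 1 library gave 6 to 7 members higher and 10 to 11 lower, and log2 fold changes of -0.03 to 0.12 for ABCA7, -0.13 to 0.03 for ABCB10 and -0.01 to 0.06 for ABCF3 (-0.02 for ABCA7 and -0.0026 for ABCF3 without Control library 3). The 8mer alone left 2 members with a seed site. Same-numbered libraries of the 2 groups had deviations correlated at -0.184, -0.058 and -0.150, so the numbers were not read as pairs. The replicate block gave 7 members higher and 10 lower, with ABCB8 at adjusted p = 0.0530, and 3329 genes higher and 3366 lower over the table.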

Other observations

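TAP1 and TAP2, the peptide transporter of antigen presentation, belong to the ABCB subfamily but carry other symbols and were outside the rule for members. TAP2 had 61.6, 60.4 and 55.9 CPM in miR-885-5p libraries and 91.3, 87.0 and 93.2 CPM in Control libraries, and was lower in all 3 (log2 fold change -0.61, SE 0.05, adjusted p = 7.94e-06 in edgeR). TAP1 averaged 33.5 ± 0.901 CPM with miR-885-5p and 31.4 ± 3.22 CPM in Control libraries (SD, n = 3 each; log2 fold change 0.09, adjusted p = 0.313 in edgeR), with overlapping groups. The subunits pair into a single transporter, and the difference between their changes was not tested.

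At p under 0.05, which the header does not label as adjusted, the authors' deposited table had 7 members higher and 11 lower. Over all rows, 57.7% had such a p in either direction. The log2 fold changes in that table rest on the same libraries. They had the sign of the edgeR values for all 29 members and differed from them by at most 0.0015.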
